A study of Caenorhabditis elegans with 3 samples.

Results

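The transthyretin-related genes (ttr) of Caenorhabditis elegans were compared between worms whose germ line makes oocytes and worms whose germ line makes sperm. Members were all rows of the deposited table whose gene symbol is ttr- followed by a number: 48 rows of 21611, for 45 genes of 14956 named genes with a row. The RefSeq gene table lists 59 ttr genes, and the other 14 had no row under their name in the tables used here. Of the 45 genes, 44 had a value on all 3 arrays and were tested among 19731 features, and ttr-23 had a value on 2 arrays. The members were chosen by name, but the family was selected on, and its members sorted by, their log2 ratios on these 3 arrays, so those ratios are a description of the family and the counts below are not independent evidence of its direction.

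RNA was compared on 3 arrays of 2 colours, numbered prep 1 to prep 3, each with 1 RNA prep of either genotype. Both genes named in the genotypes promote male fates. Loss of fem-1 function, written fem-1(lf), gives XX animals that make oocytes and no sperm, while the overactive allele class written fem-3(gf) gives XX animals that make sperm and no oocytes. The soma of both kinds of animal is otherwise that of an XX worm. The sources used here do not give allele names, strain background, age, culture temperature or the tissue taken, nor whether the preps came from separate cultures, so SDs and p-values cover the variation among the 3 arrays alone, and that variation may be technical. Each value is a log2 ratio within an array. That it runs as fem-1(lf) over fem-3(gf) is likely but not stated: the labels name fem-1(lf) first and put it in channel 2, and known sperm and oocyte genes lie on the sides that this reading gives. The sperm genes gsp-3, msp-142, fer-1 and spe-9 had mean log2 ratios from -5.76 to -2.58, and the oocyte genes oma-1, rme-2, cpg-2 and puf-5 from 2.10 to 2.98. A negative value is therefore called higher in fem-3(gf) below.

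Transthyretin is a vertebrate blood protein that carries thyroid hormone and retinol-binding protein. Nematodes have a large family of genes whose products resemble it, most of them small proteins predicted to be secreted, and the role of most members is not known. The best described is TTR-52, a secreted protein that binds phosphatidylserine on the surface of dying cells and links it to the engulfment receptor CED-1. Another, TTR-33, protects dopamine neurons from oxidative damage in the worm, and ttr-33 is among the 14 genes with no row here. Since so few members have a described role, the members are given below by side and size of the ratio, then by chromosome.

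Most ttr genes lay on the fem-3(gf) side, with a few far out on either side. The mean log2 ratio was below 0 for 41 of 44 members, against 57.6% of all features. The median of the members was -0.89, and that of all features -0.10. With limma (Benjamini-Hochberg adjusted p under 0.05 over all features), 30 members were called higher in fem-3(gf), where 23.7% of all features were, and 2 were called higher in fem-1(lf), where 21% of all features were. The remaining 12 were not called. In a stricter count without a test, 13 members were over 2-fold higher in fem-3(gf) on each of the 3 arrays (8.41% of all features) and 1 was over 2-fold higher in fem-1(lf) on each (5.2% of all features). All 3 arrays gave a value below 0 for 36 members (41.4% of all features) and above 0 for 3 (29.5%). Because the rule sorts the members by this ratio, nothing is read from these counts beyond what they describe.

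These counts depend on where 0 was set. After each array was centred on the pooled median of muscle, intestine, cuticle and neuron marker genes, which raised the median of all features by 0.39 to 0.29, the members' median was -0.50, 33 of 44 lay below 0, 24 were called higher in fem-3(gf) and 3 in fem-1(lf). Of all features, 11.3% were then called higher in fem-3(gf) and 36.7% in fem-1(lf).

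**Figure D1:**
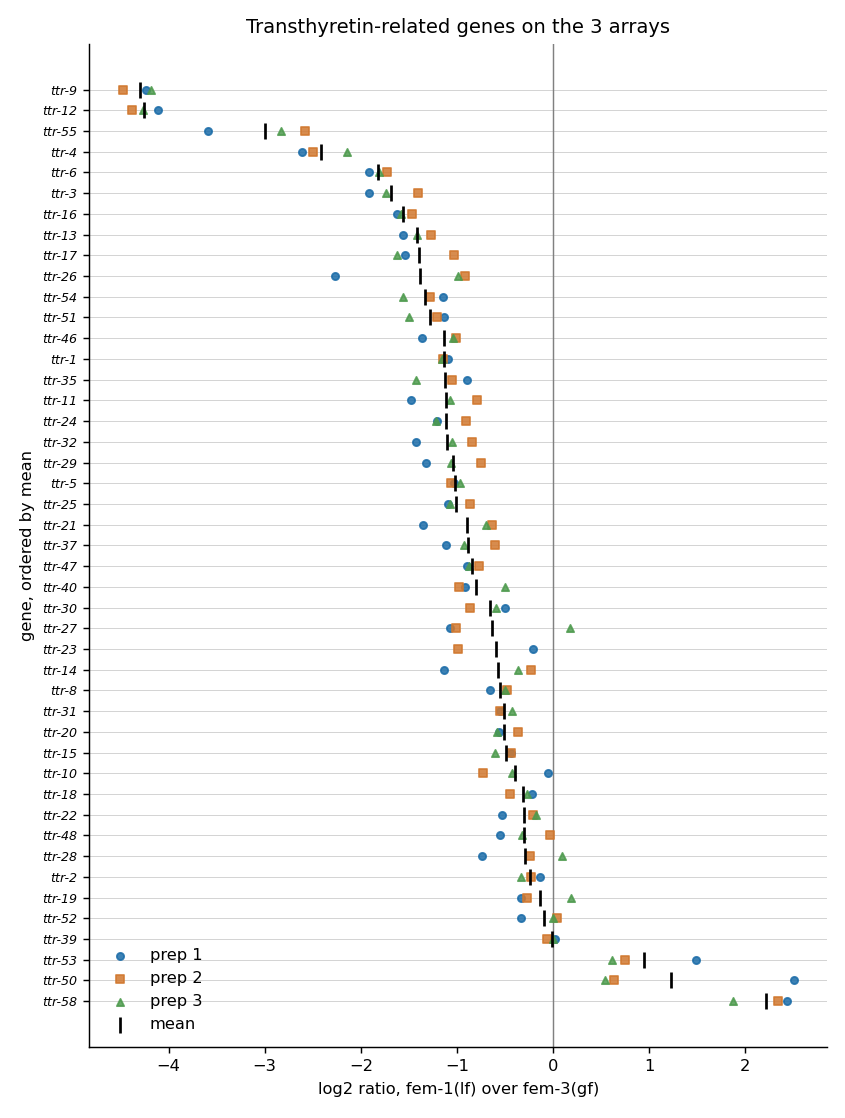
Log2 ratio, fem-1(lf) over fem-3(gf), of the 45 measured ttr genes (vertical axis, ordered by mean) on the arrays of prep 1 (circles), prep 2 (squares) and prep 3 (triangles), with the mean as a vertical bar. The genes ttr-9 and ttr-12 stand apart at -4.30 and -4.25, and ttr-53, ttr-50 and ttr-58 are the members with a mean above 0.

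**Figure D2:**
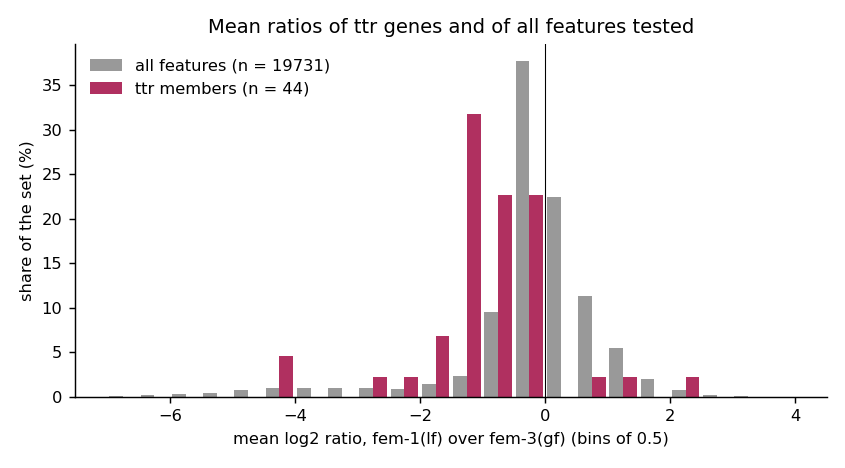
Share (%) of all 19731 features (grey) and of the 44 tested ttr genes (red) in bins of 0.5 of the mean log2 ratio, fem-1(lf) over fem-3(gf). The ttr genes are shifted to the left, with a median of -0.89 against -0.10.

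Read by size, the members fell into 4 bands, set after the values were seen. At or below -2 lay 4 members, between -2 and -0.5 lay 27, from there to 0.5 lay 10, and above lay 3. The 10 nearest to 0 all had means below it, from -0.49 to -0.01. Of all features, 37.8% lay between -0.5 and 0 and 22.4% between 0 and 0.5. The side of these members depends on where 0 was set. After centring on the somatic markers some of them had means above it, among them ttr-52 at 0.29.

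Of the 4 members at the far fem-3(gf) end, ttr-9 and ttr-12 had ratios past the median of the sperm marker genes. ttr-9 (C33A12.15, chromosome IV) had log2 ratios of -4.24, -4.47 and -4.18 on the arrays of preps 1, 2 and 3, a mean of -4.30 ± 0.15 (SD, n = 3), or 19.7-fold higher in fem-3(gf). ttr-12 (F46B3.4, chromosome V) had -4.11, -4.38 and -4.27, a mean of -4.25 ± 0.14 and a 19.04-fold difference. The arrays lay close together for both genes. Of the 19731 features, 417 had a lower mean than ttr-9 and 437 a lower mean than ttr-12. The 10 sperm marker genes ran from -6.63 to -1.63 with a median of -3.38, so both genes lay within their range and below their median. ttr-55, ttr-4, ttr-6 and ttr-3, given next, lay within that range but above the median.

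ttr-55 (F56F4.2, chromosome I) had -3.59, -2.58 and -2.83, a mean of -3.0 ± 0.53 and an 8.0-fold difference, with prep 1 lower than the others. ttr-4 (F40F12.1, chromosome III) had -2.61, -2.50 and -2.14, a mean of -2.42 ± 0.25 and a 5.33-fold difference. The current RefSeq table lists ttr-4 as a pseudogene, alone among the 45 measured members. Its neighbour in gene order, F40F12.3, was at -3.72 ± 0.39, and whether its row reports RNA of another gene was not tested.

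The next members formed a graded series, with folds from 3.52 downwards. ttr-6 (T28B4.3, X chromosome) had -1.92, -1.73 and -1.81, with a mean of -1.82 ± 0.09. ttr-3 (K03H1.3, chromosome III) had -1.92, -1.40 and -1.74, with a mean of -1.69 ± 0.26. ttr-16 (Y5F2A.1, chromosome IV) had -1.63, -1.47 and -1.58, with a mean of -1.56 ± 0.08. The array values of ttr-6 and ttr-3 overlap, and so do those of ttr-3 and ttr-16. Whether these neighbours in the order differ within arrays was not tested.

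ttr-13 had -1.56, -1.27 and -1.42, and ttr-17 had -1.54, -1.03 and -1.63. ttr-54 had -1.15, -1.28 and -1.56, and ttr-51 had -1.13, -1.21 and -1.49. ttr-46 had -1.37, -1.01 and -1.04. ttr-1 (K03H1.6) varied least of all 44 members, with -1.10, -1.15 and -1.15, a mean of -1.13 ± 0.03. The means of these 6 genes ran from -1.42 for ttr-13 to -1.13 for ttr-1, and with the 7 genes above they are the 13 members over 2-fold higher in fem-3(gf) on every array.

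ttr-11 (F46B3.3, chromosome V) was called higher in fem-3(gf) at -1.47, -0.79 and -1.07, a mean of -1.11 ± 0.34, though its array of prep 2 was short of 2-fold. The 24 tested members outside the rule for giving each array, some of which are given later, ran from -1.39 for ttr-26 to -0.24 for ttr-2. Their median was -0.64, and 16 of them were called higher in fem-3(gf) (23.7% of all features) and none higher in fem-1(lf) (21%). ttr-23, which was not tested, had -0.20 on the array of prep 1 and -0.99 on that of prep 2.

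The 3 members above 0 were unlike each other in how well the arrays matched. ttr-58 (F56F4.1, chromosome I) had 2.43, 2.33 and 1.88, a mean of 2.21 ± 0.30 (SD, n = 3), or 4.64-fold higher in fem-1(lf), and 131 features had a higher mean. The 10 oocyte marker genes ran from 1.60 to 3.49 with a median of 2.83, so ttr-58 lay within their range. ttr-53 (T14G10.3, chromosome IV) had 1.49, 0.75 and 0.62, a mean of 0.95 ± 0.47 and a 1.93-fold difference, and it was also called.

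ttr-50 (F58B3.9, chromosome IV) had 2.50, 0.63 and 0.54, a mean of 1.23 ± 1.11. Its mean rests on the array of prep 1: without it the mean was 0.59. ttr-50 was not called with all arrays (limma adjusted p = 0.051). It was called without prep 1 (limma adjusted p = 0.020), without prep 3 (1.57, limma adjusted p = 0.038) and after each form of centring, and over its alternatives the limma adjusted p lay between 0.00085 and 0.061.

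The engulfment gene ttr-52 (F11F1.7, chromosome III) lay near the middle of all features. It had -0.33, 0.04 and -0.003 on the arrays of preps 1, 2 and 3, a mean of -0.10 ± 0.20, with 9899 features below it and 9831 above. ttr-39 (C04G2.1, chromosome IV) had 0.02, -0.06 and 0.004, a mean of -0.01 ± 0.04. ttr-19 (C12D8.4, chromosome V) had -0.33, -0.27 and 0.19, a mean of -0.14 ± 0.29. The arrays of these 3 genes lay on both sides of 0 and none was called. After centring on the somatic markers their means were above 0, at 0.29 for ttr-52, 0.37 for ttr-39 and 0.25 for ttr-19.

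A list of genes for the recognition and engulfment of dying cells was looked at beside ttr-52, though not all of them need act with it. With the ratios as deposited, these genes were called about as often on each side as all features. Of 15 listed, 13 were tested, of which 3 were called higher in fem-1(lf) (21% of all features), 3 higher in fem-3(gf) (23.7% of all features) and 7 neither, with a median of -0.03. The ABC transporter gene ced-7 was at 1.34 ± 0.20, ced-12, whose product helps to activate the Rac GTPase, at 1.20 ± 0.35, and the integrin beta gene pat-3 at 1.55 ± 0.32. On the other side, nrf-5, whose secreted product binds lipid and acts with TTR-52, was at -1.07 ± 0.13, the phosphatidylserine receptor gene psr-1 at -0.62 ± 0.22 and the dynamin gene dyn-1 at -0.50 ± 0.22. The receptor gene ced-1 was at 0.41 ± 0.23 and its adaptor gene ced-6 at 0.18 ± 0.08, and neither was called. With arrays centred on their medians the counts were 5 and 2 (23.8% and 18.3% of all features). With the somatic markers as 0 they were 6 and 1 (36.7% and 11.3% of all features). Without prep 3, 1 was called higher in fem-3(gf) (14% of all features). At an adjusted p under 0.01, 1 was called higher in fem-3(gf), and the share of all features at that threshold is not given here.

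The medians of somatic marker genes lay on the same side as most ttr genes, but nearer to 0. Of 53 tested markers of intestine, cuticle, muscle and neurons, 24 were called higher in fem-3(gf) (23.7% of all features). Another 3 were called higher in fem-1(lf) (21% of all features). The means of the 53 ran from -2.74 to 0.65, and their pooled median lay between -0.56 and -0.22 on the arrays. The medians of the lists were -0.47 for 14 intestine genes, -0.32 for 12 cuticle genes, -0.42 for 13 muscle genes and -0.43 for 14 neuron genes. All 10 sperm markers were called higher in fem-3(gf) and all 10 oocyte markers higher in fem-1(lf). The table holds ratios and no levels, so it cannot show which markers are absent, and fewer cells of a type cannot be told apart from less RNA per cell. The part of tissue make-up in the ttr ratios was not tested.

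**Figure D3:**
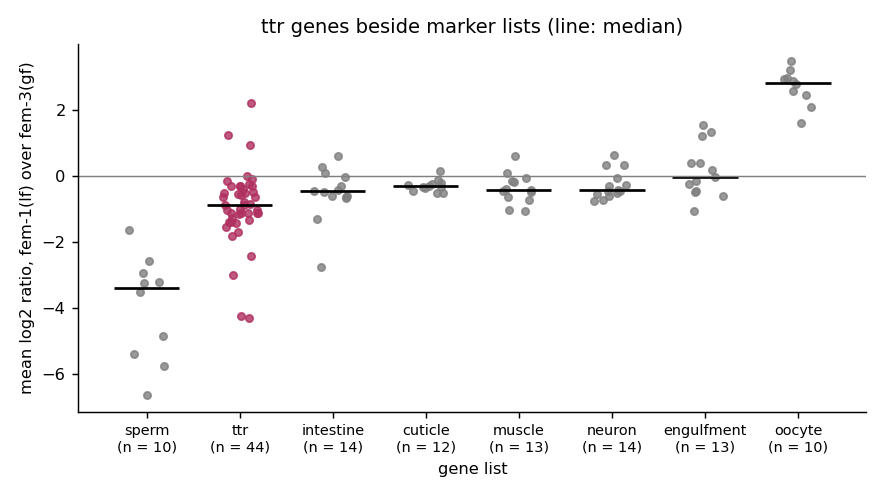
Mean log2 ratio, fem-1(lf) over fem-3(gf), of each gene (points) in the marker lists and the ttr family, with a line at each median. The ttr genes have a median of -0.89, below the medians of the somatic lists (-0.47 to -0.32) and above that of the sperm genes (-3.38).

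On each chromosome the ttr genes had a median below that of all named genes there, but only 2 members were tested on chromosome I and 1 on chromosome II. Chromosome V holds 22 of the 59 ttr genes in RefSeq, of which 16 were tested. With the ratios as deposited all 16 lay below 0 (57.6% of all features). Of the 16, 11 were called higher in fem-3(gf) and none higher in fem-1(lf). Their median was -0.95, against -0.14 for the 3791 named genes tested on that chromosome, of which 22.7% were called higher in fem-3(gf) and 14% in fem-1(lf). Without ttr-12 at -4.25 the members there lay between -1.42 and -0.14.

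On chromosome IV, 9 were tested, with 6 called higher in fem-3(gf), 1 higher in fem-1(lf) and a median of -1.28, against -0.12 for named genes there, of which 30% were called higher in fem-3(gf) and 24.6% in fem-1(lf). That chromosome held both ttr-9, the lowest member, and ttr-50 and ttr-53, which are 2 of the 3 members above 0. On chromosome III, 7 of 9 were called higher in fem-3(gf) and none higher in fem-1(lf), with a median of -1.02, against 0.06 for named genes there, of which 21.5% were called higher in fem-3(gf) and 32.2% in fem-1(lf).

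On the X chromosome all 7 tested members lay below 0 with the ratios as deposited (57.6% of all features), and 5 were called higher in fem-3(gf). Their median was -0.65, with values between -1.82 for ttr-6 and -0.30 for ttr-48. Named genes of the X had a median of -0.12, with 19.9% called higher in fem-3(gf) and 16.3% in fem-1(lf). The 2 tested members on chromosome I were ttr-55 and ttr-58, on opposite sides, and chromosome II had ttr-18 alone, at -0.31. Named genes had a median of 0.02 on chromosome I and -0.07 on chromosome II. The sides also depend on where 0 was set. After centring on the somatic markers the members' medians were -0.006 on chromosome I, 0.07 on II and -0.63 on III. They were -0.89 on chromosome IV, -0.56 on V and -0.26 on X, and the values of named genes moved up alike. ttr-19 on chromosome V was then above 0, at 0.25.

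**Figure D4:**
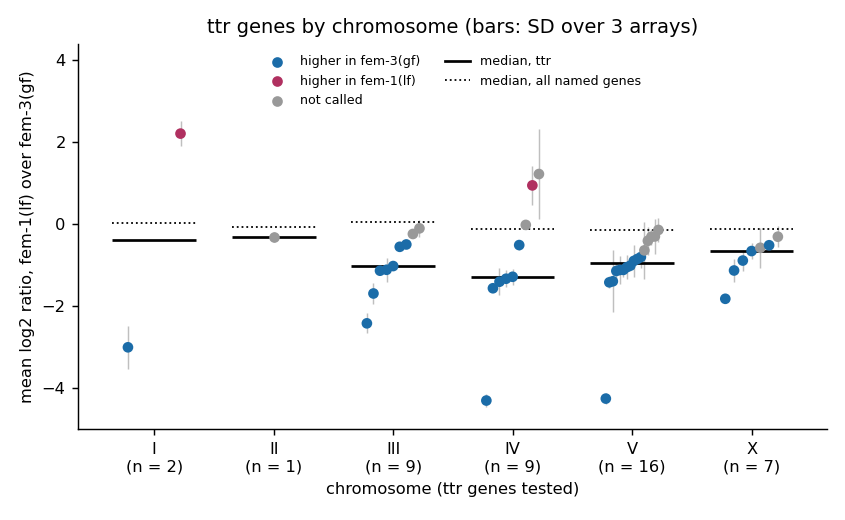
Mean log2 ratio, fem-1(lf) over fem-3(gf), of the 44 tested ttr genes by chromosome, with bars for the SD over 3 arrays, colours for the limma call, a solid line at the median of the ttr genes and a dotted line at that of all named genes. With the ratios as deposited, all 16 members on chromosome V and all 7 on the X lie below 0, and members on chromosomes I and IV lie on both sides.

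Some ttr genes stand next to each other on the chromosomes, and several such neighbours had very different ratios. With at most 2 other genes between them in RefSeq gene order, counting protein-coding genes and pseudogenes, 29 ttr genes formed 22 neighbouring pairs. Both genes were measured on all arrays in 14 pairs, which involve 19 genes. The means differed by under 0.5 on the log2 scale in 6 of the 14, by 0.5 to 1 in 4 and by more than 1 in 4, with a median absolute difference of 0.56.

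The widest gap was between ttr-55 and ttr-58 on chromosome I, which have 1 gene between them, ttr-56, with no row here. The log2 ratio of ttr-55 minus that of ttr-58 was -6.02, -4.92 and -4.70 on the arrays of preps 1, 2 and 3, a mean of -5.21 ± 0.71 (SD, n = 3). These neighbours were called on opposite sides. Likewise ttr-54 and its direct neighbour ttr-53 on chromosome IV were called on opposite sides, at -1.33 and 0.95, with a difference of -2.28 ± 0.32. On chromosome V ttr-11 and ttr-12 were both higher in fem-3(gf), but at -1.11 and -4.25, and the difference of 3.14 ± 0.48 held on every array.

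In the run of ttr-3, ttr-2 and ttr-1 on chromosome III, the gene in the middle was nearest to 0. ttr-2 had -0.14, -0.23 and -0.34, and it was not called. The difference of ttr-3 minus ttr-2 was -1.45 ± 0.31 and that of ttr-2 minus ttr-1 was 0.90 ± 0.07. No value of ttr-2 overlapped with those of either neighbour.

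Of the other neighbours, some were alike and some were not. ttr-16 and ttr-17 differed by -0.16 ± 0.25, and ttr-24 and ttr-25 by -0.10 ± 0.05, at means of -1.11 and -1.01. ttr-26, next in that run, had -2.27 on the array of prep 1 but -0.91 and -0.99 on the others, where ttr-24 minus ttr-26 was 0.005 and -0.23. In the run of ttr-27, ttr-28 and ttr-29, the array of prep 3 went apart: ttr-27 had -1.07, -1.01 and 0.17, while ttr-29 had -1.33, -0.75 and -1.06. The difference of ttr-28 minus ttr-29 was 0.75 ± 0.35, and that of ttr-8 minus ttr-32 was 0.56 ± 0.21, both above 0 on every array. The sources used here do not give the sequence on each spot, and hybridisation between related members was not tested.

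**Figure D5:**
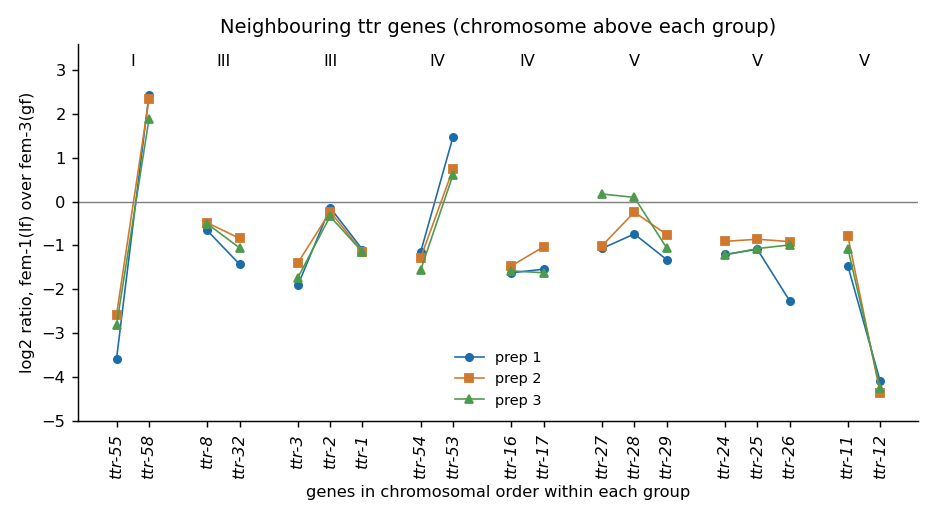
Log2 ratio, fem-1(lf) over fem-3(gf), of ttr genes in 8 groups of neighbours, in chromosomal order within a group and with the chromosome above, for each array as a line. The lines of ttr-55 to ttr-58 and of ttr-54 to ttr-53 cross 0 on all 3 arrays, while those of ttr-16 to ttr-17 lie between -1.63 and -1.03.

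The arrays gave a like order of the members. Across the 44 genes, which share arrays and are not independent replicates, Pearson's r between pairs of arrays was 0.91 to 0.96 and Spearman's rho 0.83 to 0.89. The SD between arrays had a median of 0.21, against 0.22 for all features, and exceeded 0.5 for 4 members, ttr-55, ttr-26, ttr-27 and ttr-50. The members' medians were -1.08, -0.81 and -0.90 on preps 1, 2 and 3, and those of all features -0.15, -0.07 and -0.07. Prep 1 gave the lowest of the 3 values for 24 of 44 members, counting ttr-31, where it tied with prep 2. The share of all features for that count is not given here.

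For 3 genes the table held 2 rows, which were averaged. The rows of ttr-14 gave means of -0.56 and -0.58, those of ttr-37 gave -1.18 and -0.59, and those of ttr-10 gave -0.14 and -0.66. On the array of prep 1 the rows of ttr-10 lay on opposite sides, at 0.58 and -0.69, so its level there is uncertain.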

How the data were processed

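The deposited log2 values are ratios between the channels of an array. Their base was read from the numbers: as powers of 2, all but 4 of 64209 give whole thousandths (tolerance 0.01). The sources used here do not say how the authors scaled, centred or filtered the deposited log2 ratios, which dye each channel carried, or whether dyes were swapped. No spot intensities were used, so signal over background is unknown, and the number of arrays limits the precision. GEO's platform annotation gave 1 gene for 16450 rows, several for 247 and none for 4914. RefSeq's gene table (assembly WBcel235) supplied current names, chromosomes and gene order, matching 16360 of the 16450 rows by gene ID and 8 by accession, while 82 kept the platform's name. Where a gene had several rows, their values were averaged on each array. Features on all 3 arrays were fitted in limma 3.58.1 under R 4.3.3 (intercept against 0, eBayes, two-sided, with Benjamini-Hochberg adjustment and a threshold of 0.05). The fit was also run on simulated data that met limma's assumptions by design, which cannot show whether the calls hold for these arrays. Sign changes of 3 arrays allow no two-sided p below 0.25, and limma's calls draw on variance pooled over features.

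Members and lists were chosen with earlier results of these data known. Given on each array by rule were the 6 highest and 6 lowest members, those over 2-fold on 1 side on all arrays, and ttr-52, ttr-11 and ttr-1. The rule also named ttr-33, which has no row. Of the other members and gene pairs, those named were chosen after their values were seen. Protein and promoter sequences were not analysed here. Alternatives were other centring or scaling, features on at least 2 arrays, single rows, leaving out each array, robust eBayes and an adjusted p under 0.01. Figures used matplotlib 3.10.9.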

Additional observations from a re-analysis of the deposited data

How the results depend on the processing

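No paired analysis was possible because all arrays form 1 group, beyond the pairing that the ratio within each array already makes. The median of the ttr members moved by more than its spread between arrays under 1 alternative: it was -0.50 after centring on the somatic markers, which shifts every value by the same amount on an array and leaves differences between members as they were. At an adjusted p under 0.01, 1 member was called higher in fem-1(lf) in place of 2, with ttr-53 lost. At the same threshold 23 members were called higher in fem-3(gf) in place of 30. The share of all features at that threshold is not given here. Leaving out 1 array gave 2 to 3 members called higher in fem-1(lf), 25 to 31 called higher in fem-3(gf) and medians from -1.01 to -0.79, against calls for 14.9% to 20.4% of all features on the fem-1(lf) side and 14% to 20.6% on the fem-3(gf) side. Other alternatives left these counts within 1.5 times and the median within its spread. The calls of ttr-8, ttr-15, ttr-20, ttr-30 and ttr-31 were each lost without prep 2, without prep 3, after centring on the somatic markers and at an adjusted p under 0.01. The call of ttr-40 was lost after centring on the somatic markers, and those of ttr-21 and ttr-26 at an adjusted p under 0.01. Without prep 1, ttr-10 was called higher in fem-3(gf) at -0.58, and without prep 3, ttr-27 was at -1.04. No called member given by the naming rule changed sign. Ratios without signal cannot show how dim a spot was.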

Other observations

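The nearest measured genes outside the ttr family on either side of the 7 members at the ends of the family (the 4 lowest and the 3 above 0) were looked at after those members were seen, and no explanation was tested. The lowest member, ttr-9, stood between ugt-21 at 0.10 ± 0.12 and ethe-1 at 0.34 ± 0.17 (SD, n = 3), neither of them called. Directly beside ttr-12 was grd-2 at -0.39 ± 0.10, called higher in fem-3(gf). On the other side, with 4 genes between it and ttr-12, was F46B3.2 at -0.53 ± 0.45, which was not called. Both ttr-9 and ttr-12 thus had ratios far below those of these flanking genes.

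ttr-55 lay directly beside F56F4.3 at -3.49 ± 1.07, and ttr-4 between cbp-3 at -0.76 ± 0.17 and F40F12.3 at -3.72 ± 0.39, all 3 called higher in fem-3(gf). ttr-58, at the other end of the same short stretch as ttr-55, had T09B4.5 on its far side at 0.79 ± 0.66, which was not called. ttr-53 lay between copg-1 at 0.07 ± 0.01, which was not called and has ttr-54 between it and ttr-53, and pps-1 at 0.61 ± 0.10, called higher in fem-1(lf). ttr-50 lay between rbm-17 at 1.05 ± 0.35 and ZK809.1 at -1.93 ± 0.65, which were called on opposite sides.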
